A study of Mus musculus with 5 samples.

Results

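The genes of the mitochondrial oxidative phosphorylation complexes were followed in MLE-15 mouse lung epithelial cells that carried an shRNA against Grhl2. Members were the rows of the expression table whose only platform symbol begins with Nduf (complex I), Sdh followed by a to d (complex II), Uqcr (complex III), Cox followed by 4 to 8 (complex IV) or Atp5 (complex V). The rule found 118 probe sets of 93 genes, among 21640 single-symbol probe sets of 19937 genes. Complex I gave 43 genes, complexes II and III 8 each, and complexes IV and V 17 each. The subunits that mitochondrial DNA encodes are outside the rule, as are the complex III gene Cyc1 and 6 probe sets that list a member together with another gene.

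Oxidative phosphorylation makes most of the ATP of a resting epithelial cell. Complexes I and II pass electrons from NADH and succinate to ubiquinone, complex III passes them on to cytochrome c, and complex IV reduces oxygen. Complexes I, III and IV pump protons across the inner mitochondrial membrane, and complex V, the ATP synthase, uses that gradient. The subunits come from nuclear and mitochondrial genes together, and assembly factors join them without remaining in the finished complex. In the lung, alveolar type II cells are rich in mitochondria and use ATP for surfactant synthesis and ion transport.

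MLE-15 is an immortalised line, grown from lung tumours of mice in which a surfactant protein C promoter of human origin switched on the SV40 large T antigen. All 5 cultures, controls included, therefore carry that antigen, and all carried a lentivirus with a GFP reporter and puromycin selection (5 µg/ml, 6 days after 16 h of infection). Infection was at a multiplicity of 50 with polybrene at 5 µg/ml in all 5. In 3 of them the virus held 1 hairpin against Grhl2, an epithelial transcription factor of the Grainyhead family, and in 2 it held a non-silencing hairpin. The sample titles number the samples within each group and do not name the unit of replication. The p-values measure the spread between these samples of 1 cell line with 1 hairpin. Expression is given as log2 signal after RMA, and the array medians lay between 5.29 and 5.32. Grhl2 itself (probe set 10423770) read 7.43, 7.43 and 7.60 with the Grhl2 shRNA and 7.77 and 7.68 in the controls. That is a log2 fold change of −0.24 (SE 0.065), whose adjusted p of 0.082 in limma missed the threshold, and an exact two-sided permutation test gave p = 0.2, where the smallest possible value is 0.1. The knockdown arrays are therefore named here by their label. The epithelial genes Nkx2-1, Cdh1, Epcam and Sftpb had control means of 10.00, 11.37, 9.98 and 12.10, well over the filter level of 4.22. The type II cell genes Abca3, Sftpd, Sftpc and Napsa were lower, at 8.92, 7.82, 6.98 and 6.90. The median level of all genes tested was 7.46. Of 9 epithelial and type II cell markers listed, 8 were tested and Lamp3 was under the filter. Among the 8, Napsa rose, Sftpd fell and 6 did not pass. Of 4 leukocyte markers, 3 had single-symbol probe sets and 2 were over the filter, both at low levels. Cd3e had means of 5.16 with the Grhl2 shRNA and 5.17 in the controls, and Tyrobp rose from 4.33 to 4.61 (adjusted p = 0.020). Their part in the results was not tested.

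Few oxidative phosphorylation genes changed past the threshold. Of the 93 genes, 92 passed the filter on dim probe sets and were tested, and the remaining one, the testis isoform gene Cox7b2, lay below it on every array, between 2.73 and 2.93. Ndufb6 and Cox6a2 rose, Uqcrh and Uqcr11 fell, and 88 did not pass an adjusted p of 0.05. The 4 called genes are 4.35% of the members tested, against 6.38% of all 14979 genes tested (2.86% higher and 3.52% lower). In this fit the share called was not above the background, and in other settings it lay on either side of it. Changes were small: log2 fold changes (Grhl2 shRNA minus control) ran from −0.26 to 0.33, with a median absolute value of 0.057 and a median standard error of 0.045. For 84 of the 92 genes the 95% confidence interval lay inside a 1.25-fold change in either direction. That is 91.3%, against 86.7% of all genes tested and 90.7% of genes at least as bright as the members' lower quartile, so narrow intervals were not particular to the members. The other 8 were the 4 called genes and Ndufa1, Ndufa2, Sdhaf4 and Uqcrq.

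The small values leaned upward. The log2 fold change was above 0 in 63 members and below 0 in 29, or 68.5% above, where 50.9% of all genes tested were above 0. The members' median was 0.042 and that of all genes 0.0020. Set against each gene's control mean, the median member stood at 0.051, 0.027 and 0.035 on Grhl2 shRNA arrays 1, 2 and 3. On the controls it stood at −0.0060 and 0.0060. Each knockdown array lay above both controls. The control values mirror each other around 0 because of this centring, so they give no independent spread of the controls. The median of all genes on the same arrays lay between −0.0055 and 0.0061. Without Grhl2 shRNA replicate 1 the members' median was 0.021. In 37 members every knockdown array was above both controls, in 13 every one was below, and in 42 the groups overlapped. Among all genes tested, groups stood apart in 41.5%, with 21.0% above and 20.5% below. Brighter genes stood apart more often. Of 4864 genes at least as bright as the members' lower quartile, 1408 were above, 1271 below and 2185 overlapped. Of the 69 members that bright, 29 were above, 10 below and 30 overlapped. Standing apart in either direction was therefore not particular to the members.

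**Figure D1:**
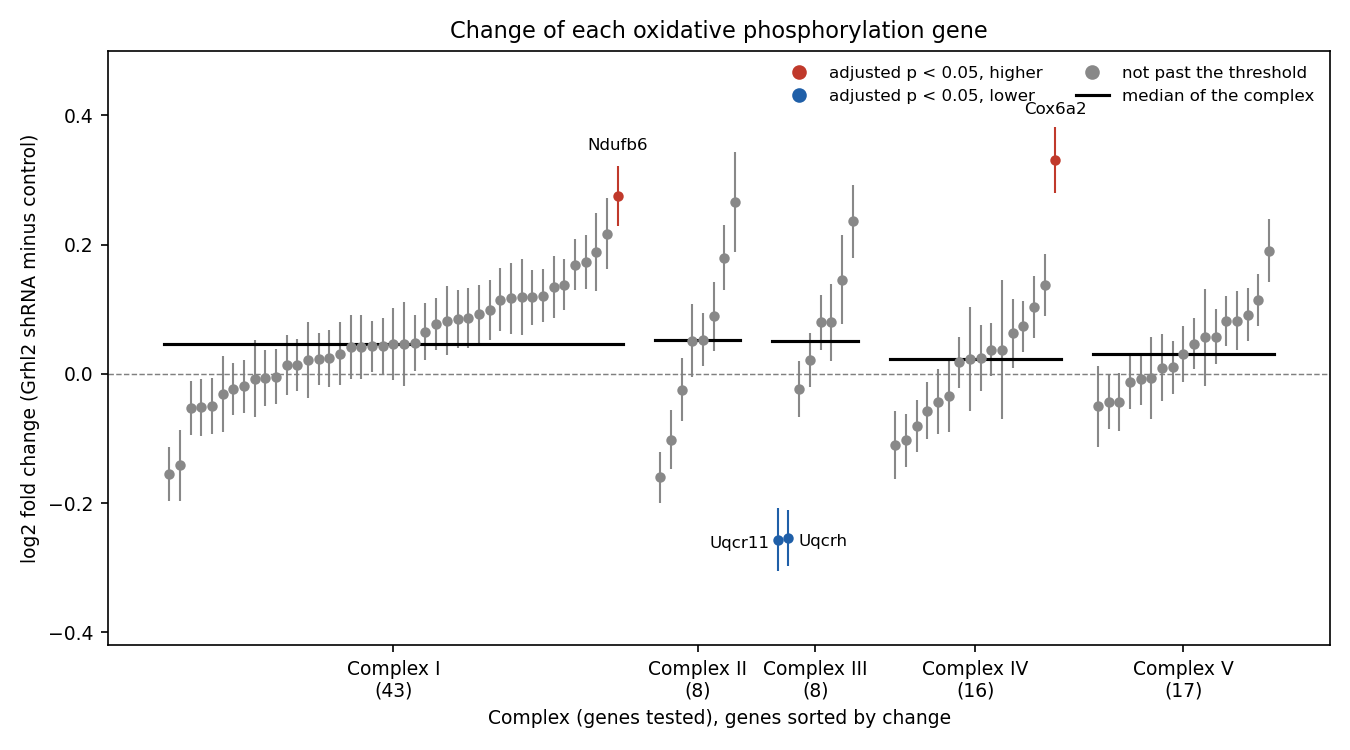
Log2 fold change of each of the 92 tested genes (y axis, Grhl2 shRNA minus control, points, with the moderated standard error as bars), sorted within each complex (x axis, number of genes in brackets), with the median of the complex as a black line. Most points lie close to 0, with Ndufb6 and Cox6a2 at the top and Uqcr11 and Uqcrh at the bottom.

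All 5 complexes had small medians above 0, and few calls. The median log2 fold change was 0.046 for complex I, 0.052 for complex II, 0.051 for complex III, 0.024 for complex IV and 0.031 for complex V. No test was made between them. Set against the control means, every knockdown array lay above both controls in complexes I and V, but not in the others. In complex II, Grhl2 shRNA array 3 was at 0.0157 and control 1 at 0.0163. In complex III, Grhl2 shRNA array 3 was at 0.0227 and control 2 at 0.0285. In complex IV, Grhl2 shRNA array 2 was at 0.0048 and control 1 at 0.0051. The number called was 1 of 43 in complex I, 0 of 8 in complex II, 2 of 8 in complex III, 1 of 16 in complex IV and 0 of 17 in complex V, against the same 6.38% of all genes. Some medians depended on 1 array or on the probe sets used. Complex II was at 0.034 without Grhl2 shRNA replicate 1. Complex IV was at −0.0099 without Grhl2 shRNA replicate 1 and at 0.0081 and 0.050 without control replicates 2 and 1. Complex V was at 0.0079 and 0.069 without control replicates 1 and 2, and at 0.018 and 0.017 without Grhl2 shRNA replicates 1 and 2. Complex III was at 0.019 without control replicate 1 and 0.029 without Grhl2 shRNA replicate 1, and at −0.023 when every probe set counted. The number of members called fell to 0 without Grhl2 shRNA replicate 1, control replicate 1 or control replicate 2, to 1 (Ndufb6) without Grhl2 shRNA replicate 2, and to 2 (Cox6a2 and Uqcrh) without Grhl2 shRNA replicate 3, while the share of all genes called fell to between 0.447% and 3.29%.

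In complex I, NADH dehydrogenase, 1 of 43 genes rose and none fell. Ndufb6 (10512093), an accessory subunit of the membrane arm, read 10.91, 10.84 and 10.94 on the Grhl2 shRNA arrays and 10.64 and 10.60 on the controls. All 3 knockdown values lay above both controls. The mean went from 10.62 ± 0.03 (SD, n = 2) to 10.90 ± 0.05 (SD, n = 3), 1.21-fold higher (log2 fold change 0.28, SE 0.047, limma adjusted p = 0.023). The adjusted p was 0.060, 0.046 and 0.058 without Grhl2 shRNA replicates 1, 2 and 3, and 0.099 and 0.138 without control replicates 1 and 2.

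Several other accessory subunits of complex I had groups that did not overlap but missed the threshold. Ndufa2 (10458386) had 10.02, 10.02 and 9.98 against 9.71 and 9.87 in the controls, a log2 fold change of 0.22 (SE 0.055, adjusted p = 0.066). Ndufa4 (10543134), named for complex I and now known as a subunit of complex IV, had 10.25, 10.21 and 10.27 against 10.09 and 10.05, a log2 fold change of 0.17 (SE 0.042, adjusted p = 0.061). Ndufb5, an accessory subunit chosen after its value was seen, was higher by 0.14 on the log2 scale and missed the threshold as well (adjusted p = 0.091). Ndufs4 (10412251), a small subunit needed for a stable electron input module and also chosen after its value was seen, ran the other way, with 9.83, 9.86 and 9.89 against 10.00 and 10.03 and a log2 fold change of −0.15 (SE 0.042, adjusted p = 0.077). Across the 29 accessory subunits, 21 had log2 fold changes above 0 and 8 below, with a median of 0.047.

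The core of complex I, the conserved subunits that bind NADH and pass electrons on to ubiquinone, showed no call. Of 6 core genes tested, 4 had log2 fold changes above 0 and the median was 0.018. Ndufs3 (10484912), a core subunit of the arm that reaches ubiquinone, had the most uniform values, 10.57, 10.58 and 10.57 with the Grhl2 shRNA against 10.40 and 10.41. Its log2 fold change of 0.17 (SE 0.039) lay just outside the threshold, with an adjusted p of 0.051. Of the genes whose products carry iron-sulfur clusters, Ndufs1 had a log2 fold change of 0.042, Ndufs7 of −0.019 and Ndufs8 of −0.052. Ndufv1 and Ndufv2, which also carry clusters and form the part that takes electrons from NADH, were at 0.023 and 0.014. The 7 assembly factor genes of complex I, Ndufaf1 to Ndufaf7, all had values above 0, between 0.013 and 0.13, and none passed. Ndufa4l2, a paralog of Ndufa4 known from hypoxia, had 4.89, 4.98 and 5.05 against 5.11 and 5.12, a log2 fold change of −0.14 (adjusted p = 0.18), opposite in sign to Ndufa4.

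In complex II, succinate dehydrogenase, no gene of 8 passed. Sdha (10410625), the flavoprotein that oxidises succinate, read 10.22, 10.24 and 10.23 with the Grhl2 shRNA and 10.40 and 10.38 in the controls. All 3 knockdown values lay below both controls, with a log2 fold change of −0.16 (SE 0.039, adjusted p = 0.061). The iron-sulfur subunit gene Sdhb and the membrane anchors Sdhc and Sdhd had values of 0.089, 0.053 and 0.052 (adjusted p = 0.38, 0.49 and 0.65). The assembly factors Sdhaf4 (10353545) and Sdhaf1 (10561907), which act on the flavoprotein and on the iron-sulfur subunit, had log2 fold changes of 0.27 (SE 0.077, adjusted p = 0.093) and 0.18 (SE 0.051, adjusted p = 0.085). Sdhaf4 read 6.63, 6.60 and 6.84 against 6.38 and 6.47, so the groups did not overlap, but its standard error was among the wider ones of the members. A dimmer probe set of Sdhaf4 had a log2 fold change of 0.059, with overlapping groups. The other 2 assembly factors of complex II, Sdhaf2 and Sdhaf3, went the other way, at −0.024 and −0.10 (adjusted p = 0.82 and 0.24). In Sdhaf3 every knockdown array was below both controls.

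In complex III, the cytochrome bc1 complex, 2 of 8 genes fell and none rose. Uqcrh (10515253), the acidic hinge protein at the site where cytochrome c docks, read 10.50, 10.46 and 10.52 with the Grhl2 shRNA and 10.72 and 10.77 in the controls. The mean went from 10.75 ± 0.03 (SD, n = 2) to 10.49 ± 0.03 (SD, n = 3), 1.19-fold lower (log2 fold change −0.25, SE 0.043, limma adjusted p = 0.022). Uqcr11 (10370833), the smallest accessory subunit, read 10.31, 10.20 and 10.29 against 10.51 and 10.54. Its mean went from 10.52 ± 0.02 (SD, n = 2) to 10.27 ± 0.06 (SD, n = 3), also 1.19-fold lower (log2 fold change −0.26, SE 0.049, limma adjusted p = 0.032). For both genes every knockdown array was below both controls. The adjusted p of Uqcrh was 0.056, 0.082 and 0.048 without Grhl2 shRNA replicates 1, 2 and 3, and 0.095 and 0.137 without control replicates 1 and 2. That of Uqcr11 was 0.054, 0.089 and 0.065 without the knockdown replicates in the same order and 0.127 and 0.165 without the controls. With no filter on dim probe sets, they were 0.0503 and 0.065.

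Other subunits of complex III did not follow. Uqcrq (10385818), which binds near ubiquinone and was named after its value was seen, had 10.61, 10.69 and 10.55 against 10.34 and 10.42, a log2 fold change of 0.24 (SE 0.056, adjusted p = 0.056), with no overlap between groups. The core proteins Uqcrc1 and Uqcrc2 were at 0.080 and 0.080 (adjusted p = 0.48 and 0.31). The Rieske iron-sulfur protein gene Uqcrfs1 was at 0.022, and Uqcrb, which also takes part in ubiquinone binding, at −0.023.

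The promoters of 3 of the 4 called genes are shown because these genes moved past the threshold. RefSeq windows of build GRCm38.p6 matched 77 of the 93 members by gene identifier, and Cox6a2 was not matched. Each line gives the 250 bases before the annotated start, 5′ to 3′ on the gene's strand. Capitals mark CCGGAAGT, a core of ETS factor sites, or its reverse complement.

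Ndufb6, chr4:40279422-40279671, minus strand: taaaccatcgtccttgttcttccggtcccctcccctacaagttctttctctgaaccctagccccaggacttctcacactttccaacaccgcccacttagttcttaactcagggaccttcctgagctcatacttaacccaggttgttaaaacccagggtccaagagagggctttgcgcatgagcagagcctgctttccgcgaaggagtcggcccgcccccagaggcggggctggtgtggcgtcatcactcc
Uqcr11, chr10:80406822-80407071, minus strand: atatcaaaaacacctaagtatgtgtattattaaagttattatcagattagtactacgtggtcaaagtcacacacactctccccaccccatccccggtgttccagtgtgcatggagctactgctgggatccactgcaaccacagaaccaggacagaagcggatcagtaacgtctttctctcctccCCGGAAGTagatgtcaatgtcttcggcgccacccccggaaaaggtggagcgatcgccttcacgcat
Uqcrh, chr4:116075071-116075320, minus strand: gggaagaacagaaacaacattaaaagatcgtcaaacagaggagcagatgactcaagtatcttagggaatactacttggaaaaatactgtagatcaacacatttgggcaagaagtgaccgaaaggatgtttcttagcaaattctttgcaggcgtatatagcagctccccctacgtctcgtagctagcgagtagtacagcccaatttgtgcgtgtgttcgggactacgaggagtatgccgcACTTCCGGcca

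Of the 5 members with an ETS core, Uqcr11 and Uqcrh fell, and Ndufs3, Atp5h and Cox8a were at 0.17, 0.082 and −0.081 and did not pass. The core begins 66 bases before the start in Uqcr11, and on the opposite strand 11 bases before it in Uqcrh. Uqcr11 also holds GCATGCGC, the core of the NRF1 motif, beginning 4 bases before the start and running past the window printed. Ndufb6 held none of the motifs searched. Over the whole windows of 250 bases before and 50 after the start, on both strands, CCGGAAGT was found in 5 of 77 members (6.49%) and 4.0% of 27025 RefSeq windows. GCATGCGC was found in 12 members (15.6%) and 2.8% of all windows, and AAGATGGCG, the core of the YY1 motif, in 6 members (7.79%) and 1.49% of all windows. NRF1, ETS factors of the GABP type and YY1 are the textbook regulators of nuclear respiratory genes. The Grainyhead motif AACCGGTT was found in 0 of 77 members and 0.152% of all windows, and its looser form AACNNGTT, which includes the former, in 1 member (1.3%), Atp5d, and 4.19% of all windows. These counts describe letters in the windows, not bound sites. The background is all RefSeq windows, and the share among genes as bright as the members was not counted. Whether the shares are particular to the members was not tested.

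**Figure D2:**
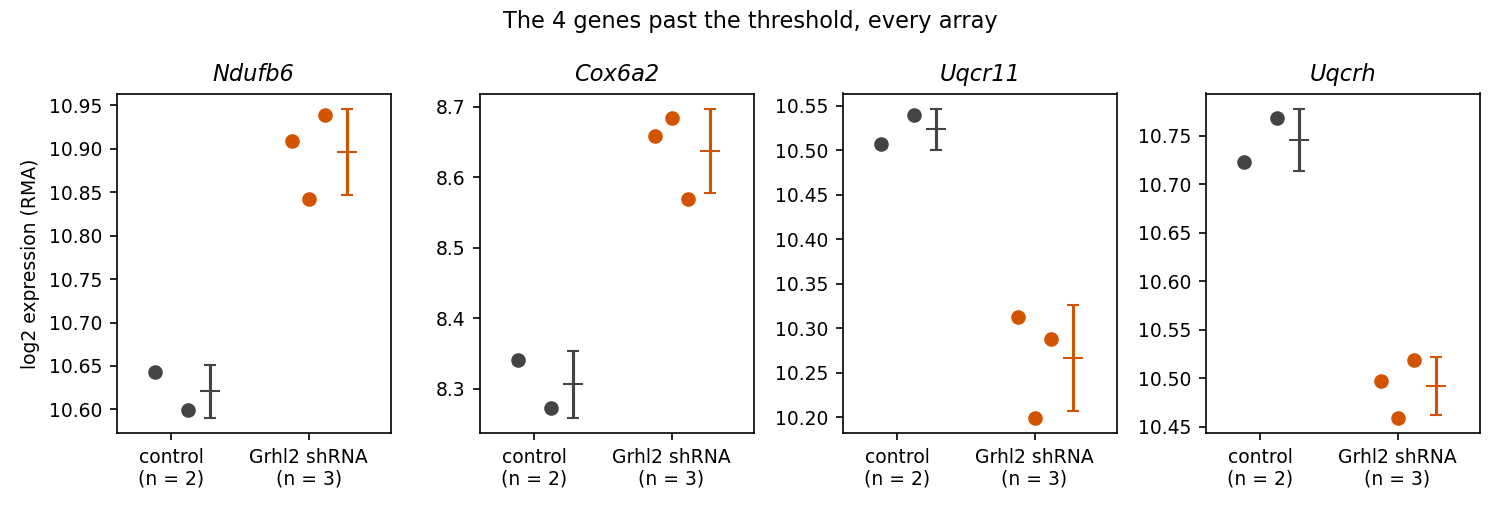
Log2 expression (y axis, RMA) of the 4 genes past the threshold on every array (points; 2 control and 3 Grhl2 shRNA arrays), with the group mean and SD beside them; each panel has its own range. In each gene the groups do not overlap, upward for Ndufb6 and Cox6a2 and downward for Uqcr11 and Uqcrh.

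In complex IV, cytochrome c oxidase, 1 of 16 tested genes rose and none fell. Cox6a2 (10568369), the heart and skeletal muscle isoform of subunit 6a, read 8.66, 8.68 and 8.57 with the Grhl2 shRNA and 8.34 and 8.27 in the controls, with no overlap. The mean went from 8.31 ± 0.05 (SD, n = 2) to 8.64 ± 0.06 (SD, n = 3), 1.26-fold higher (log2 fold change 0.33, SE 0.051, limma adjusted p = 0.019). The adjusted p was 0.053, 0.061 and 0.028 without Grhl2 shRNA replicates 1, 2 and 3, and 0.077 and 0.125 without control replicates 1 and 2. Its ubiquitous counterpart Cox6a1 was at 0.038 on the log2 scale (adjusted p = 0.64). Of 4 striated muscle markers none rose: the myosin gene Myh7 (10419934) fell by 0.65 (SE 0.050, adjusted p = 0.0036), and Myh6, Acta1 and Ckm were at −0.35, −0.13 and 0.026 (adjusted p = 0.082, 0.19 and 0.83). Their part in the Cox6a2 value was not tested. In bulk RNA, fewer cells expressing a gene and less RNA per cell cannot be told apart.

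The other isoform pairs of complex IV showed no call in either partner. Cox4i1, the common form of subunit 4, was at 0.10 (adjusted p = 0.25) and Cox4i2, the form known from lung and low oxygen, at −0.057 (adjusted p = 0.50). Cox6b1 was at −0.10 (adjusted p = 0.19) and the testis form Cox6b2 at −0.043. Cox7a1, the muscle form, was at 0.023 and Cox7a2, the common form, at −0.034. Cox7a2l (10399677), which links complexes III and IV into supercomplexes, had 8.97, 8.86 and 8.90 against 8.76 and 8.78, a log2 fold change of 0.14 (SE 0.048, adjusted p = 0.14). Cox8a was at −0.081 and the rarer forms Cox8b and Cox8c at 0.038 and 0.063. Cox5a and Cox5b, which have no isoform partner among the members, were at 0.074 and 0.024.

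In complex V, the ATP synthase, none of 17 genes passed, and all 17 confidence intervals lay inside a 1.25-fold change. Of the catalytic head, Atp5a1 (10456891, alpha subunit) read 11.29, 11.31 and 11.27 against 11.18 and 11.17, a log2 fold change of 0.11 (SE 0.040, adjusted p = 0.15). Its partner Atp5b (beta subunit) was at −0.012 and Atp5c1, the central stalk, at 0.031. The 3 genes for the proton-carrying c ring, Atp5g1, Atp5g2 and Atp5g3, encode the same mature protein and were at 0.0097, −0.0078 and 0.047. The 4 peripheral stalk genes all had values above 0, between 0.010 and 0.082, among them Atp5o at 0.058. Atp5mpl (10402752), a small membrane subunit, had 9.98, 10.03 and 10.10 against 9.86 and 9.84, the largest value of the complex at 0.19 (SE 0.049, adjusted p = 0.069), and the groups did not overlap.

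For 18 members the array held several probe sets, 43 in all, and each gene above is given by its brightest. In 15 of these genes all probe sets had the same sign. Uqcr11 is one of them: its second probe set had a log2 fold change of −0.29 beside −0.26, and each passed when all 16230 probe sets over the filter were tested together with limma (adjusted p = 0.044 and 0.037). Those of Ndufs3 gave 0.17 and 0.16, but the groups overlapped in the second, whose adjusted p was 0.32. In other genes of the same sign the sizes differed. Sdhaf4 had 0.27 and 0.059, with overlapping groups and an adjusted p of 0.73 in the dimmer probe set. Atp5md ranged from −0.27 to −0.0060 and Atp5g1 from 0.0097 to 0.25, where the brightest probe set gave the value nearest 0. The signs differed in Atp5g2, Atp5l and Ndufab1. The dimmer probe set of Ndufab1, the mitochondrial acyl carrier protein gene, had a log2 fold change of −0.24 and passed that test (limma adjusted p = 0.045), whereas the brighter one was at 0.047 (adjusted p = 0.58). Many of these genes have processed copies in the mouse genome, so that probe sets under 1 symbol may not measure the same transcript, and such genes are uncertain to that extent.

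**Figure D3:**
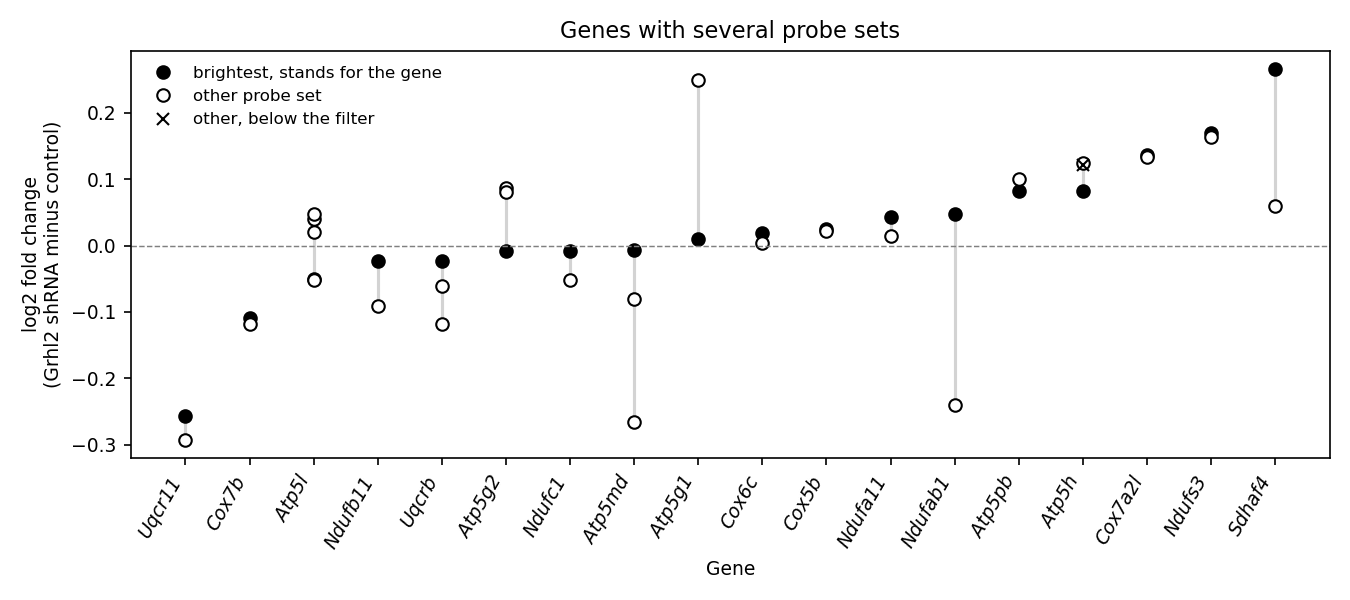
Log2 fold change (y axis, Grhl2 shRNA minus control) of every probe set of the 18 genes with several (x axis), the brightest as a filled circle, others as open circles and a probe set below the filter as a cross. Both probe sets of Uqcr11 lie below −0.25, and those of Ndufab1 lie on opposite sides of 0.

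Genes around the respiratory chain were described from lists kept apart from the members. Of 31 other assembly factors tested, 2 rose and 29 did not pass, or 6.45% called against 6.38% of all genes. Their median log2 fold change was 0.042, and 0.019 without control replicate 2 and 0.066 without Grhl2 shRNA replicate 3. Uqcc2 (10449315), an assembly factor of complex III, rose by 0.27 (SE 0.040, adjusted p = 0.017), and Sco1 (10377010), which delivers copper to complex IV, rose by 0.27 (SE 0.046, adjusted p = 0.024). Uqcc2 missed the threshold without Grhl2 shRNA replicate 2 (adjusted p = 0.061), control replicate 1 (0.099) or control replicate 2 (0.104). Sco1 missed it without Grhl2 shRNA replicates 2 and 3 (adjusted p = 0.083 and 0.058) and without control replicates 1 and 2 (0.117 and 0.137). Of 13 tricarboxylic acid cycle genes, Suclg2 (10546538), a subunit of succinyl-CoA ligase, rose by 0.25 (SE 0.049, adjusted p = 0.035), and 12 did not pass. In 12 of the 13 the log2 fold change was above 0, with a median of 0.050, so an upward lean was not particular to the members. Suclg2 read 4.43, 4.33 and 4.37 with the Grhl2 shRNA and 4.09 and 4.16 in the controls, so it passed the filter of 4.22 only through the group where it is high, and its call supports nothing on its own. Its adjusted p was between 0.070 and 0.174 whichever array was left out. Of 12 regulators of mitochondrial biogenesis none passed, and Ppargc1b, the coactivator PGC-1β, chosen after its value was seen, was at 0.24 (adjusted p = 0.056). Of 13 genes of mitochondrial DNA, 2 were measured by single-symbol probe sets. They were at −0.018 (COX2) and −0.017 (ND3), neither past the threshold. The cytochrome genes Cyc1 and Cycs were at 0.013 and 0.0026 and did not pass. None of the 4 carrier and inhibitor genes (Slc25a3, Slc25a4, Slc25a5 and Atpif1) passed, and all 4 were below 0, with a median of −0.036.

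Glycolysis genes leaned the other way. Of 15 tested, 12 had log2 fold changes below 0, with a median of −0.16, and in 9 every knockdown array was below both controls, against 20.5% of all genes. The size of that median rested on the controls: leaving out control replicate 2 gave −0.037 and leaving out control replicate 1 gave −0.25, settings chosen after seeing the data. Only Aldoc (10379153), an aldolase, passed: it fell from 9.77 ± 0.14 (SD, n = 2) to 9.26 ± 0.12 (SD, n = 3), by 0.51 on the log2 scale (SE 0.085, adjusted p = 0.022). Its adjusted p was 0.062 and 0.134 without control replicates 1 and 2. None of 7 genes of pyruvate dehydrogenase and its kinases passed. Their median was −0.016, and ranged from −0.037 to 0.018 over the arrays left out. Whether glycolysis and respiratory chain genes differ in their change was not tested.

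**Figure D4:**
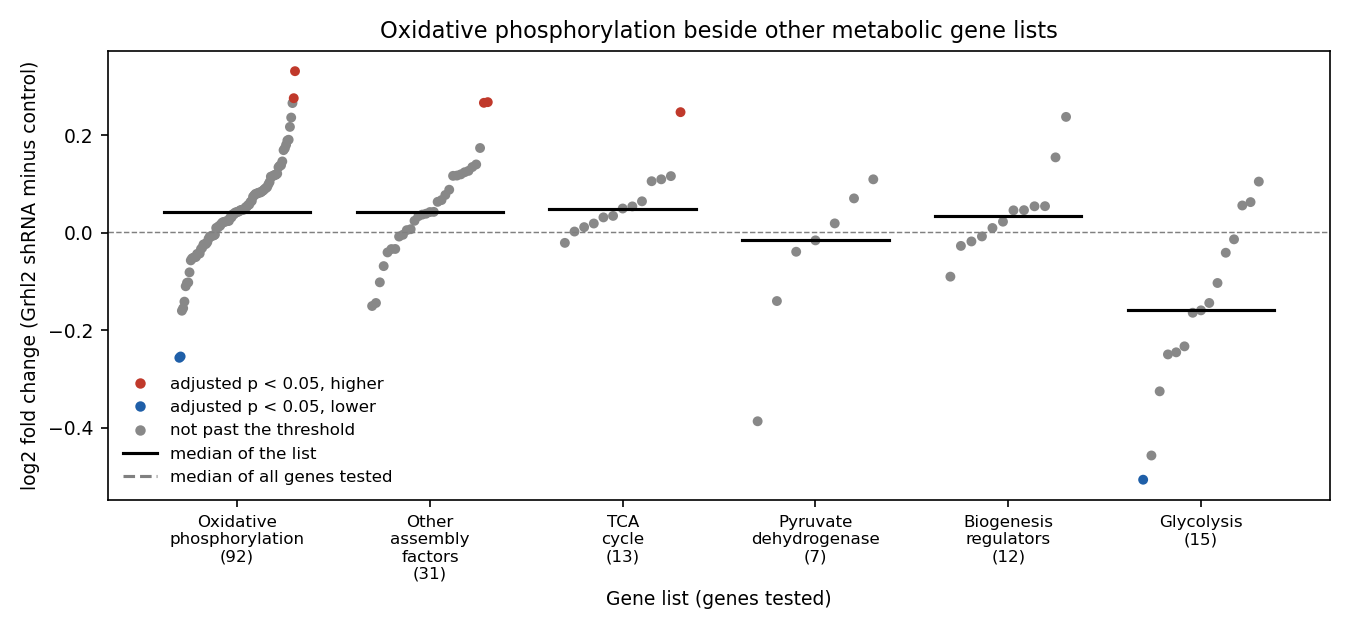
Log2 fold change (y axis, Grhl2 shRNA minus control) of each tested gene in 6 lists (x axis, number tested in brackets), coloured by the limma call at an adjusted p of 0.05, with the list's median as a black line and the median of all genes as a dashed line. The medians are 0.042 for oxidative phosphorylation and −0.16 for glycolysis, the latter −0.037 without control replicate 2.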

How the data were processed

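RNA of 5 cultures was labelled from 300 ng and hybridised to Affymetrix whole-transcript arrays, 1 sample per array. The authors deposited log2 values; per the submitters' processing notes, Affymetrix Expression Console produced them by RMA. Its version and the genome build are not given in the sources consulted. Of 34760 probe sets, the platform annotation pairs 21640 with 1 symbol, 1321 with several and 11799 with none; only the first were used. A filter removed those whose mean log2 value was under the 25th percentile, 4.22, leaving 16230, and the brightest probe set stood for each of 14979 genes. Groups were compared with limma 3.58.1 in R 4.3.3 (lmFit, eBayes, two-sided) with Benjamini-Hochberg adjustment over all genes and a threshold of 0.05. Precision is limited by the small number of arrays. Members, gene lists and alternatives were chosen with earlier results of these data known. Genes named are Grhl2, the called members, the 2 largest changes of each complex with fewer than 2 calls, a fixed panel of core subunits and isoform groups, and called genes of other lists. Alternatives were the filter, array centring, cyclic loess, the probe set rule, array weights, a trended robust prior, the threshold, a block for the replicate number and leaving out arrays one by one.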

Additional observations from a re-analysis of the deposited data

How the results depend on the processing

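The members' median log2 fold change stayed above 0 under every alternative run, from 0.021 to 0.052 over the arrays left out, while the number of calls moved with the setting, as did the share of all genes called. The cause was not tested. Members called higher and lower were 2 and 2 as reported and 0 lower with no filter, where 2.15% of members and 2.1% of all genes were called. They were 10 and 4 when the filter stood at the 50th percentile (16.5% of members against 17.2% of all genes). With a trended robust prior they were 12 and 5 (18.5% against 13.6%), and at an adjusted p of 0.10 they were 10 and 4 (15.2% against 12.4%). With array weights 4 were higher, and 6.52% of members were called against 7.3% of all genes. With every probe set tested, 4 probe sets were lower, those of Uqcrh and Ndufab1 and both of Uqcr11. Arrays with the same replicate number in both groups deviated together at r = 0.057 and 0.019, over 2 shared numbers. The deviations of the 2 controls mirror each other, so pairing unlike numbers gives −0.057 and −0.019 by construction. These values therefore cannot decide whether the replicate number marks a shared batch. With that number as a block, 0 and 0 members were called, among 172 genes in all, so complexes I, III and IV had 0 calls. With the arrays left out, each count lay between 0 and 1, also for complexes I, III and IV. Complex I had 6 calls with the stricter filter and at 0.10, 7 with the trended prior, and 2 with median centring, array weights or every probe set. Complex II had 3 with the stricter filter, the trended prior and 0.10. Complex III had 0 with no filter and complex IV 2 with the trended prior. Complex V had 1, 2 and 1 with the stricter filter, the trended prior and 0.10. The median of complex V was 0.053 with probe sets averaged and 0.044 with every probe set, and 0.0079 to 0.069 over the arrays left out. That of complex III was −0.023 with every probe set, and that of complex IV ranged from −0.0099 to 0.050.

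Other assembly factors had 1 call with no filter, 0 with the block and 0 to 2 over the arrays left out. The tricarboxylic acid cycle had 0 calls with no filter, the stricter filter, the trended prior or the block, and 0 over the arrays left out. Biogenesis regulators had 1 with the stricter filter, cyclic loess or array weights and 2 with the trended prior or 0.10. Glycolysis had 3 with the stricter filter or 0.10, 2 with cyclic loess or array weights, 5 with the trended prior, 0 with the block and 0 to 2 over the arrays left out, and pyruvate dehydrogenase 0 to 1.

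Values near 0 changed sign between the arrays left out, in genes that were not called. The lowest and highest values were −0.016 and 0.099 for Ndufs1, −0.012 and 0.12 for Sdhd, −0.058 and 0.011 for Uqcrb, −0.0075 and 0.056 for Cox5b, and −0.042 and 0.017 for Atp5b. They were −0.035 and 0.10 for Cox7a1, −0.098 and 0.031 for Cox7a2, −0.041 and 0.15 for Cox8b, −0.050 and 0.069 for Atp5g1, and −0.020 and 0.00074 for Atp5g2. Cox7a1 was at −0.0097 with array weights. Atp5g2 was at 0.053 with probe sets averaged and 0.00074 with the block, and Ndufab1 at −0.096 with probe sets averaged. Where a control array was left out, the lone control was taken to vary like the knockdown arrays.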
